A study of Vitis vinifera with 16 samples.

Results

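Thaumatin-like proteins make up family 5 of the pathogenesis-related (PR) proteins, and 8 of their gene models stand close together on chromosome 2 of grapevine, in the thaumatin and osmotin cluster VIT_02s0025g. The genes described here are the rows VIT_02s0025g04250, VIT_02s0025g04260, VIT_02s0025g04280, VIT_02s0025g04290, VIT_02s0025g04300, VIT_02s0025g04310, VIT_02s0025g04330 and VIT_02s0025g04340. They were taken by identifier, and all 8 were present among the 30661 genes of the expression table. No source used here gives a single row its own protein name, so the class is that of the cluster and each gene is called by its identifier. Their gene models were between 642 and 986 bp long, as rebuilt from the values.

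Thaumatin-like proteins owe their name to thaumatin, the sweet protein of a West African fruit, and osmotin is the member first known from tobacco cells adapted to salt. Many of them slow the growth of fungi in culture, and several bind or cleave beta-1,3-glucans, which are part of fungal cell walls. In grapevine they are best known from the ripening berry, where they accumulate and later form haze in white wine, and from leaves and berries attacked by fungi or oomycetes.

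The study asked how leaves of cv. Garnacha Blanca, grafted on rootstock 110R and kept in a greenhouse, respond to biocontrol products. Plants were sprayed with the botanical extract Akivi, made from Dittrichia viscosa and applied at 0.521 g/L (Aki), with Bacillus velezensis UdG as lyophilized (BL) or fresh (BF) cells, or with water as non-treated control (NTC), and leaves were taken 24 h later. Each of the 4 groups had 4 libraries, and each library pooled 2 leaves from each of 5 plants. The plants of a treatment formed 1 block of the greenhouse trial, so treatment and block cannot be told apart. The lyophilized cells were mixed with skimmed milk and the fresh cells were concentrated in their culture supernatant, and no group received either material alone.

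Values are FPKM, fragments counted on a gene, divided by its length and by the depth of the library, which allow levels to be compared between genes. The libraries held between 11078475 and 16991911 fragments on genes, as rebuilt from the smallest steps of the FPKM values. A library of each group was left out by the study because it stood apart from its replicates in a principal component analysis, namely Aki_R1, BL_R1, BF_R1 and NTC_R3. Fold changes are therefore given for the 12 retained libraries and, where this matters, for all 16. They are differences of log2(FPKM + 0.1), written Log2(FC) and given with their SE, and they understate the change of genes with low values. In whole leaves, fewer cells of a type and less RNA per cell cannot be told apart, and the leaf identity of the libraries was not checked against marker genes here. Only uniquely mapped fragments were counted, and neighbouring genes of nearly the same sequence can lose or exchange fragments, so a value of a single gene in this cluster is uncertain to that extent.

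In NTC leaves the 8 genes differed widely in level. VIT_02s0025g04250 had the highest mean, 22.0 ± 0.407 FPKM (SD, n = 3 retained libraries), followed by VIT_02s0025g04310 with 18.2 ± 3.67 FPKM, and the libraries of these genes overlapped. Both were well expressed, at percentiles 72.5 and 67.7 of the genes tested. VIT_02s0025g04330 came next with 8.09 ± 2.26 FPKM, below every NTC value of the first pair. VIT_02s0025g04280 had 3.09 ± 0.432 FPKM, VIT_02s0025g04340 had 2.62 ± 0.236 FPKM and VIT_02s0025g04300 had 1.90 ± 0.674 FPKM. The lowest NTC value of VIT_02s0025g04280, 2.83 FPKM, and the highest of VIT_02s0025g04340, 2.82 FPKM, almost met, and VIT_02s0025g04340 and VIT_02s0025g04300 overlapped. VIT_02s0025g04290, with 0.260 ± 0.119 FPKM, and VIT_02s0025g04260, with 0.173 ± 0.101 FPKM, overlapped too and were barely expressed, at percentiles 1.6 and 0.7. These low genes had between 1 and 9 and between 0 and 21 fragments in a library, over all 16.

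**Figure D1:**
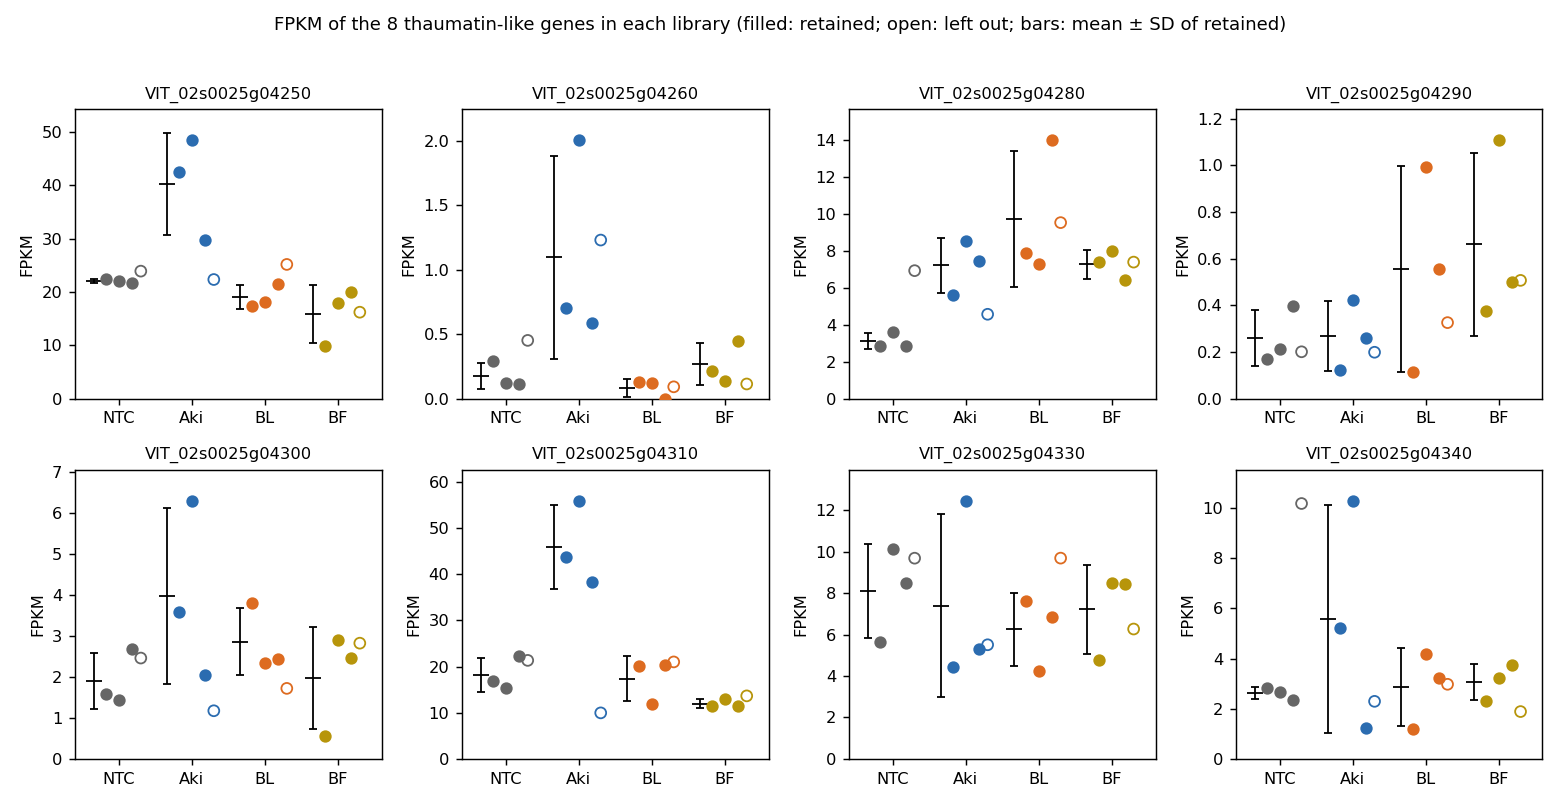
FPKM of each of the 8 thaumatin-like genes (vertical axes, starting at 0 and scaled per gene) in the NTC, Aki, BL and BF libraries. Filled points are the 12 retained libraries, open points the 4 left out, and bars show the mean ± SD of the retained libraries. The retained Aki libraries of VIT_02s0025g04310 (38.2 to 56.0 FPKM) lay above all others, while the open Aki point, at 9.97 FPKM, lay below NTC, and for VIT_02s0025g04280 every retained treated library lay above the retained NTC libraries.

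After Aki treatment, the 2 genes that rose were VIT_02s0025g04310 and VIT_02s0025g04280. Among all genes tested, 7.91% passed the same test (adjusted p of 0.05 or less) and 4.29% passed it upwards. No member fell. The study set a further threshold for differentially expressed genes (DEGs), a Log2(FC) of at least 1.4 in size. Its own DEGs were called with edgeR, so a DEG here shares this threshold but not the test. No member both passed the test and reached that threshold, as 1.68% of the genes tested did. The call for both genes rested on the retained libraries, since with all 16 none of the 8 passed the test, as against 0.929% of the genes tested. There, 3 of the 8 had an unadjusted p under 0.05 (limma), beside 10.4% of the genes tested. VIT_02s0025g04260 was 1 of these 3 and lends no support, since only its Aki libraries took it over the filter on low values.

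VIT_02s0025g04310 was the clearest of them. Its retained Aki libraries had 43.8, 56.0 and 38.2 FPKM, against 16.9, 15.3 and 22.3 FPKM in the retained NTC libraries. The Aki values thus lay well above the NTC values, with a Log2(FC) of 1.34 ± 0.21, a 2.52-fold increase (adjusted p = 0.00381, limma). The left-out library Aki_R1 had 9.97 FPKM, lower than any NTC library, while NTC_R3 had 21.3 FPKM. With all 16 libraries the Log2(FC) was 0.73 (adjusted p = 0.544), and with Aki_R1 alone removed from the 16 it was 1.27 (adjusted p = 0.00584). The adjusted p stayed between 0.00152 and 0.0211 when each retained library was left out in turn.

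VIT_02s0025g04280 had 5.61, 8.54 and 7.46 FPKM in the retained Aki libraries and 2.83, 3.59 and 2.86 FPKM in the retained NTC libraries. Aki and NTC were fully separated, and the Log2(FC) was 1.18 ± 0.24, a 2.27-fold increase (adjusted p = 0.0116, limma). Here the control mattered most. The left-out library NTC_R3 had 6.92 FPKM and Aki_R1 had 4.56 FPKM, and with all 16 libraries the Log2(FC) was 0.74 (adjusted p = 0.307). With only NTC_R3 removed from the 16 it was 1.02 (adjusted p = 0.0273). Among the retained libraries the call was lost without Aki_R3 (adjusted p = 0.0575) and without NTC_R4 (adjusted p = 0.0536). It was also lost with the replicate number as a block (Log2(FC) = 1.11, adjusted p = 0.081, limma).

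A further pair of genes was higher in every retained Aki library than in every retained NTC library but did not pass the test. VIT_02s0025g04250 had 42.5, 48.4 and 29.7 FPKM in Aki, against 22.4, 22.0 and 21.6 FPKM in NTC, and Aki_R1, with 22.3 FPKM, was at the NTC level. Its Log2(FC) was 0.84 ± 0.24 (adjusted p = 0.0525, limma), the nearest to the threshold, and it passed in 6 of 28 alternative settings. VIT_02s0025g04260 had 5, 21 and 6 fragments in the retained Aki libraries and 3, 1 and 1 in NTC. Its Aki libraries, Aki_R1 with 11 fragments included, stood above all NTC libraries, of which NTC_R3 had 4. Pooled over the retained libraries, 32 fragments in Aki and 5 in NTC gave a ratio, corrected for depth, of 6.38 (95% exact interval 2.47 to 20.98, counting error only). The Log2(FC) was 2.00 ± 0.61 (adjusted p = 0.0637), and since only its Aki libraries lifted this gene over the filter on low values, a difference was built into its being tested. With these, 4 of the 8 genes did not overlap between Aki and NTC, as was the case for 26.8% of the genes tested. VIT_02s0025g04260 lends no support to this count, since only its Aki libraries passed the filter. With all 16 libraries it was the one that did not overlap (5.61% of the genes tested), and the same limit holds.

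The other 4 genes showed no detectable difference between Aki and NTC, with Log2(FC) of 0.94 ± 0.54 for VIT_02s0025g04300, 0.63 ± 0.62 for VIT_02s0025g04340, 0.01 ± 0.63 for VIT_02s0025g04290 and -0.24 ± 0.38 for VIT_02s0025g04330 (adjusted p from 0.356 to 0.998, limma). Their Aki libraries were spread widely. VIT_02s0025g04340 had 5.22, 10.3 and 1.23 FPKM in the retained Aki libraries, which enclosed the NTC values of 2.82, 2.68 and 2.36 FPKM. VIT_02s0025g04300 had 3.59, 6.30 and 2.06 FPKM in Aki and 1.596, 1.43 and 2.67 FPKM in NTC. VIT_02s0025g04330 had 4.42, 12.5 and 5.31 FPKM in Aki and 5.66, 10.1 and 8.50 FPKM in NTC. In each of the 8 genes, the highest of the 4 Aki libraries was Aki_R3. The median Log2(FC) over the 8 genes was 0.89, beside -0.01 over all genes tested, and it was 0.53 beside 0.00 with all 16 libraries. These medians include VIT_02s0025g04260, whose rise in Aki was built into its being tested.

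**Figure D2:**
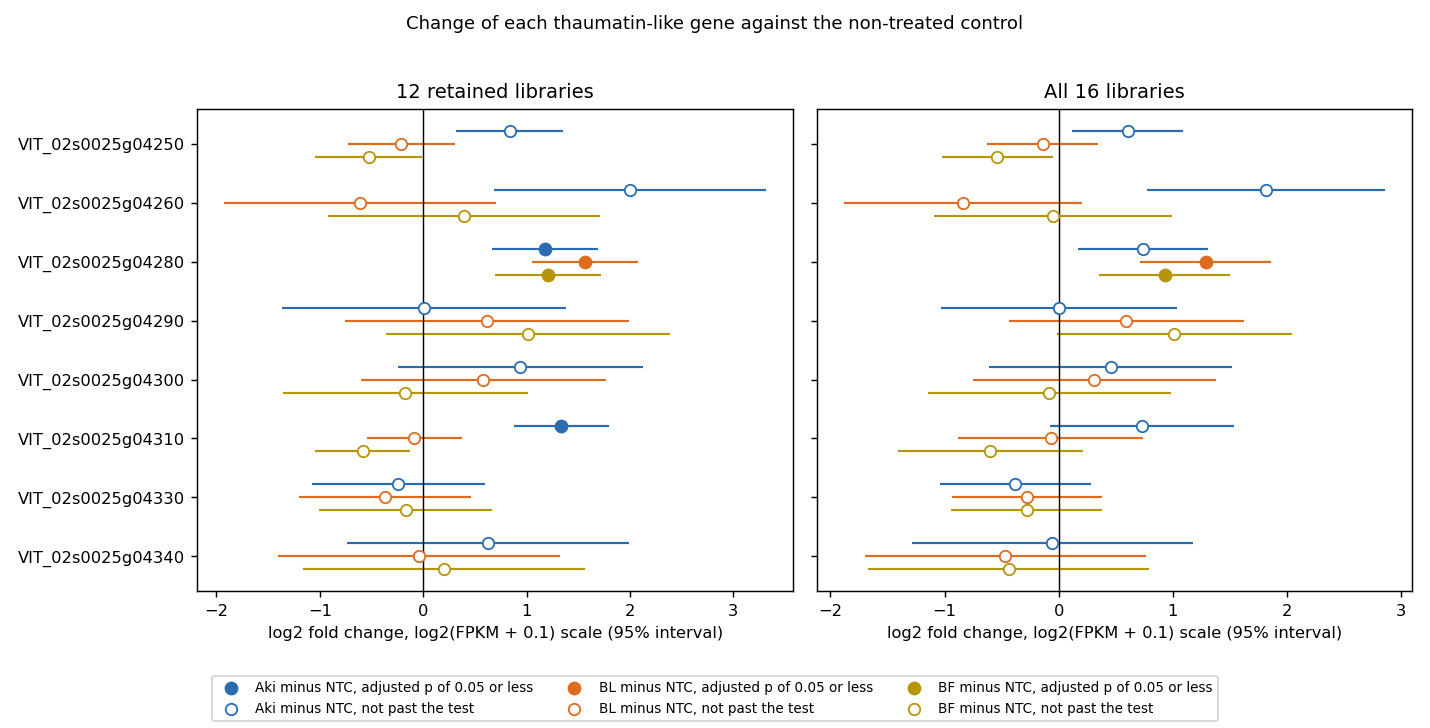
Log2 fold change of each gene against NTC (horizontal axis, log2(FPKM + 0.1) scale) after Aki, BL and BF treatment, with 95% intervals, for the 12 retained libraries (left) and all 16 (right). Filled points had an adjusted p of 0.05 or less. VIT_02s0025g04280 passed the test after all 3 treatments with the retained libraries, and VIT_02s0025g04310 after Aki alone, while with all 16 libraries the filled points are VIT_02s0025g04280 after BL and BF.

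After BL treatment, VIT_02s0025g04280 was the gene that rose, and it was a DEG by the threshold of the study applied to the limma fit. Its retained BL libraries had 7.87, 7.28 and 14.0 FPKM and the left-out BL_R1 had 9.51 FPKM. All of them exceeded the 4 NTC libraries, NTC_R3 with 6.92 FPKM included. The Log2(FC) was 1.56 ± 0.24, a 2.96-fold increase with a 95% interval of 1.05 to 2.08 on the log2 scale (adjusted p = 0.000751, limma), and with all 16 libraries it was 1.29 (adjusted p = 0.00359). This call held in each of the 28 alternative settings, with adjusted p from 0.000246 to 0.0113, but the gene reached the DEG threshold in 21 of them, and not with all 16 libraries or without BL_R4 (Log2(FC) = 1.27). As 1 of 8 genes was called where 19.7% of the genes tested were (3.83% as DEGs), the number of calls among the thaumatin-like genes was not above that of the whole table. The other 7 genes had Log2(FC) between -0.61 and 0.62 and did not pass the test. For VIT_02s0025g04250, the retained BL libraries, with 17.5, 18.1 and 21.6 FPKM, lay just under those of NTC (Log2(FC) = -0.21, adjusted p = 0.578), and BL_R1, with 25.2 FPKM, lay above them. With the rise of VIT_02s0025g04280, that makes 2 genes whose retained groups did not overlap, where 36.4% of the genes tested did not.

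After BF treatment, VIT_02s0025g04280 rose again, measured against the same NTC libraries. The BF libraries had 7.40, 7.98 and 6.39 FPKM and BF_R1 had 7.38 FPKM, a narrow range above the retained NTC libraries. NTC_R3, at 6.92 FPKM, fell inside that range. The Log2(FC) was 1.21 ± 0.24, a 2.31-fold increase (adjusted p = 0.00443, limma), and 0.93 with all 16 libraries (adjusted p = 0.0268). Of the genes tested, 15.5% were called and 2.73% were DEGs, and no thaumatin-like gene was a DEG, so 1 call among 8 genes was again not above the whole table.

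The 2 most expressed of the 8 genes stood on the other side of the control. VIT_02s0025g04310 had 11.4, 13.1 and 11.4 FPKM in the retained BF libraries and 13.7 FPKM in BF_R1. Each of these was below the lowest NTC library, at 15.3 FPKM. Its Log2(FC) was -0.58 ± 0.21 (adjusted p = 0.0856, limma), which did not pass the test, and it passed in 3 of 28 alternative settings. VIT_02s0025g04250 had 9.79, 17.9 and 20.1 FPKM in BF and 16.2 FPKM in BF_R1, again below every NTC library, with a Log2(FC) of -0.53 ± 0.24 (adjusted p = 0.167). Together with VIT_02s0025g04280, these made 3 genes without overlap between BF and NTC in the retained libraries (32.0% of the genes tested), and VIT_02s0025g04310 and VIT_02s0025g04250 also did not overlap with all 16 (17.3%). VIT_02s0025g04290 had 0.375, 1.11 and 0.501 FPKM in BF, which are 18 fragments against 8 in NTC, a ratio, corrected for depth, of 2.44 (95% exact interval 1.01 to 6.49, counting error only). Its libraries overlapped, and the Log2(FC) was 1.01 ± 0.63 (adjusted p = 0.334, limma). Only BL and BF libraries lifted this gene over the filter on low values, so a difference was built into its being tested.

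The treatments were also compared with each other, which tests directly whether a gene responded differently. Between Aki and BL, 3 of the 8 genes were called, all higher in Aki, where 15.4% of the genes tested were called, 6.66% upwards, and 2.32% were DEGs. VIT_02s0025g04310 had a Log2(FC) of 1.42 ± 0.21 (adjusted p = 0.000952), VIT_02s0025g04250 had 1.05 ± 0.24 (adjusted p = 0.012) and VIT_02s0025g04260 had 2.61 ± 0.61 (adjusted p = 0.0126, limma). The call of VIT_02s0025g04260 lends no support, since this gene was tested only because of its Aki libraries. In the same 3 genes the retained libraries did not overlap, as in 37.1% of the genes tested, and the same limit holds for VIT_02s0025g04260. For VIT_02s0025g04260 the BL libraries held 1, 1 and 0 fragments, and the pooled ratio of Aki to BL, 32 to 2 fragments, was 13.76 after correction for depth (95% exact interval 3.51 to 118.54, counting error only). With all 16 libraries VIT_02s0025g04250 (adjusted p = 0.0388) and VIT_02s0025g04260 (adjusted p = 0.00154) were called, and VIT_02s0025g04310 was not (Log2(FC) = 0.80, adjusted p = 0.184). Without Aki_R2, VIT_02s0025g04310 alone was called.

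Between Aki and BF, the difference of VIT_02s0025g04310 was larger still, with a Log2(FC) of 1.92 ± 0.21, or 3.78-fold (adjusted p = 0.000117, limma), and 1.33 with all 16 libraries (adjusted p = 0.0275). VIT_02s0025g04250 differed by 1.37 ± 0.24 (adjusted p = 0.00255), and by 1.14 with all 16 (adjusted p = 0.00289). Both calls held in each of the 28 alternative settings. Beside these 2 of 8 genes, 15.8% of the genes tested were called, 6.04% upwards, and 2.42% were DEGs, as VIT_02s0025g04310 was with the retained libraries but not with all 16. VIT_02s0025g04260 passed with all 16 libraries (Log2(FC) = 1.87, adjusted p = 0.017) but not with the retained ones (1.61 ± 0.61, adjusted p = 0.0943), and in both fits only its Aki libraries took it over the filter.

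VIT_02s0025g04280, although called after each treatment against the same NTC libraries, showed no detectable difference between treatments. Its Log2(FC) was -0.38 between Aki and BL (95% interval -0.90 to 0.13, adjusted p = 0.294), -0.02 between Aki and BF (-0.54 to 0.49, adjusted p = 0.962) and 0.36 between BL and BF (-0.16 to 0.87, adjusted p = 0.681). Between BL and BF none of the 8 genes passed the test, with Log2(FC) from -1.0 to 0.75 and a lowest adjusted p of 0.592. Limma called 0% of all genes there, although 8.09% had an unadjusted p under 0.05, among them VIT_02s0025g04310 (Log2(FC) = 0.50 ± 0.21).

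The sum of the 8 genes gives the level of the group as a whole. It was 56.3 ± 4.13 FPKM in NTC, 111.7 ± 30.2 FPKM in Aki, 58.8 ± 9.87 FPKM in BL and 48.4 ± 10.0 FPKM in BF (SD, n = 3 retained libraries each). The Aki libraries, from 84.8 to 144.4 FPKM, lay above those of all other groups, but the left-out Aki_R1 had 47.3 FPKM, below every NTC library, and NTC_R3 had 75.2 FPKM. VIT_02s0025g04250 and VIT_02s0025g04310 together made between 56.5% and 81.4% of the sum over the 16 libraries. Their share was 72.3% to 81.4% in the retained Aki libraries and 56.5% to 58.9% in those of BF.

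**Figure D3:**
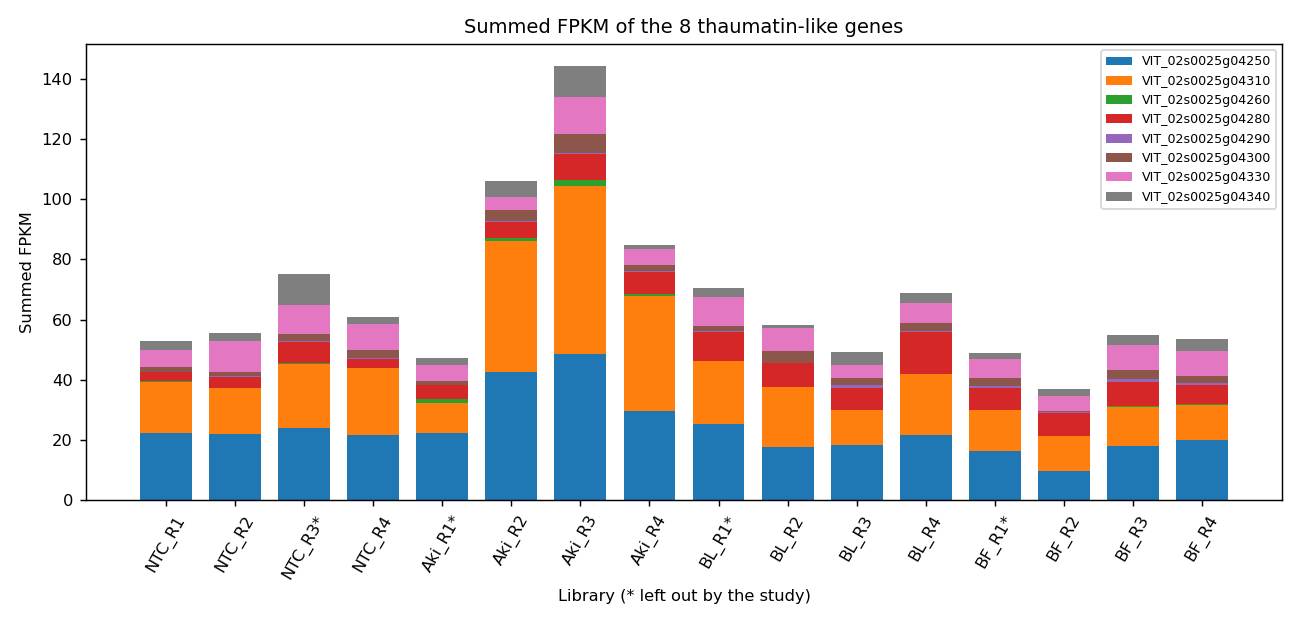
Summed FPKM of the 8 genes (vertical axis from 0) in each of the 16 libraries, with the contribution of each gene stacked and the libraries left out by the study marked with an asterisk. The retained Aki libraries reached 84.8 to 144.4 FPKM, mostly from VIT_02s0025g04250 and VIT_02s0025g04310, whereas Aki_R1 stayed at 47.3 FPKM.

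The genes did not all vary together. The 16 libraries differ in treatment and depth. Over them, the 28 pairs of members had Pearson r between -0.33 and 0.83 on the log2(FPKM + 0.1) scale. The median was 0.22, and 0.34 after subtracting group means. Pairs with VIT_02s0025g04260 or VIT_02s0025g04290 rest on few fragments, so their r is uncertain. Pairs without these genes had r from -0.02 to 0.83, and from 0.24 to 0.75 after subtracting group means. The closest pair was VIT_02s0025g04250 and VIT_02s0025g04310 (r = 0.83, and 0.66 after subtracting group means). Of the genes outside the 8, the 5 most like VIT_02s0025g04250, among 20238 genes compared over 16 libraries, were VIT_01s0127g00560 (r = 0.925), VIT_05s0077g01600 (0.902), VIT_01s0127g00540 (0.895), VIT_14s0068g01030 (0.887) and, from the same locus, VIT_02s0025g04230 (0.886). After subtracting group means, the r of these 5 genes lay between 0.737 and 0.871. VIT_05s0077g01600 is a gene of PR family 10.

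The row identifiers also place the 8 genes among others of the same stretch. Between VIT_02s0025g04200 and VIT_02s0025g04400 the table has 13 further rows, of which 10 were tested. After Aki, 2 of the 10 rose, beside 4.29% of all genes tested. The identifiers of these 2 fall before and among those of the thaumatin-like genes. VIT_02s0025g04230 went from 81.1 ± 1.44 FPKM in NTC to 226.9 ± 44.8 FPKM in Aki (Log2(FC) = 1.47 ± 0.17, adjusted p = 0.000914), and VIT_02s0025g04270 from 288.1 ± 47.5 to 640.4 ± 179.1 FPKM (1.13 ± 0.19, adjusted p = 0.0051, limma). Both were far more expressed than any of the 8 members. Unlike the members, they were still called with all 16 libraries (adjusted p = 0.00078 and 0.00933), and Aki_R1 had 196.7 and 561.0 FPKM, above every NTC library. After BF both fell, to 48.4 ± 10.3 FPKM (Log2(FC) = -0.77, adjusted p = 0.00922) and 169.9 ± 0.299 FPKM (-0.75, adjusted p = 0.0192). The third gene that fell after BF was VIT_02s0025g04380 (-0.57, adjusted p = 0.00979), which was also the one that fell after BL (-0.63, adjusted p = 0.00469). The sources used here do not name these rows. Of all genes tested, 5.62% fell after BF and 8.16% fell after BL.

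**Figure D4:**
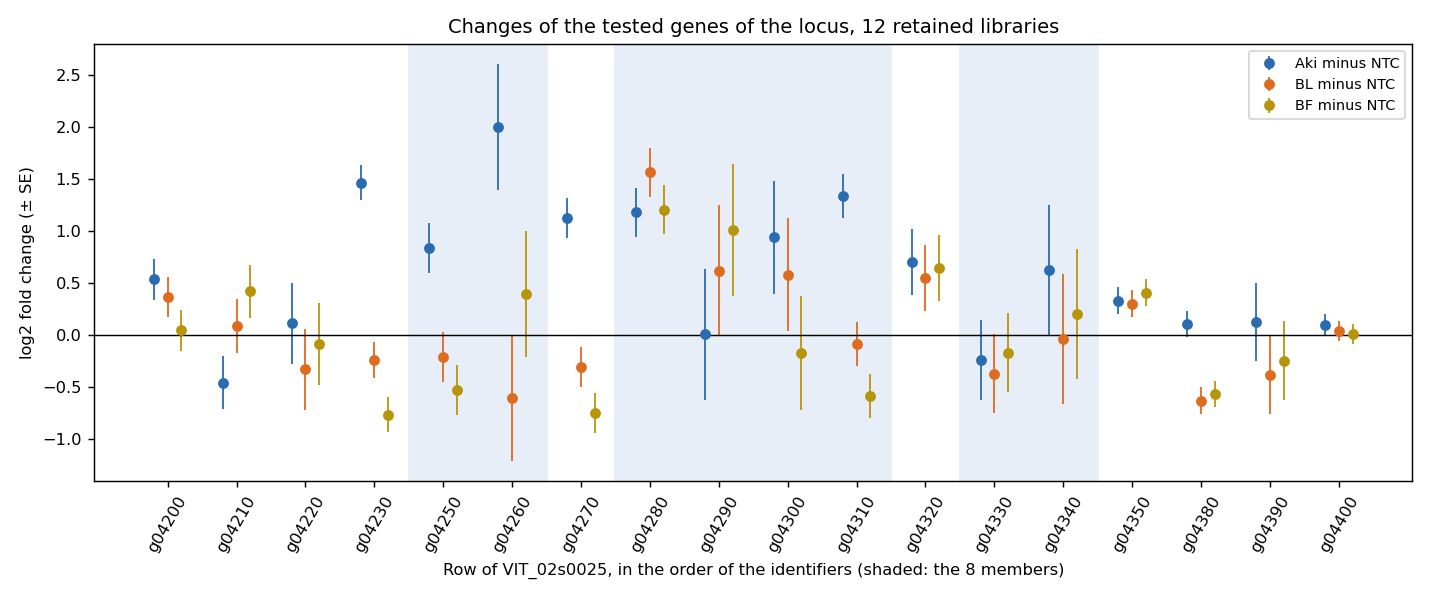
Log2 fold change (± SE, 12 retained libraries) against NTC of the 8 members and the 10 other tested rows between VIT_02s0025g04200 and VIT_02s0025g04400, in the order of their identifiers and not to genomic scale. Shaded columns are the 8 thaumatin-like genes. After Aki, VIT_02s0025g04230 (1.47), VIT_02s0025g04270 (1.13), VIT_02s0025g04280 (1.18) and VIT_02s0025g04310 (1.34) passed the test, and after BL and BF VIT_02s0025g04280 (1.56 and 1.21) was the row that passed it upwards.

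PR proteins of other families are usually studied beside thaumatin-like proteins. For the counts that follow, 4.29% of all genes tested rose and 3.63% fell after Aki, 11.5% rose and 8.16% fell after BL, and 9.89% rose and 5.62% fell after BF. Among 13 tested rows of the chromosome 3 locus with a PR family 1 gene, 3 rose and 1 fell after Aki, and 2 rose and 1 fell after either BL or BF, with a median Log2(FC) between -0.14 and 0.13. VIT_03s0088g00810, which the study names as a precursor of PR family 1, rose after Aki (1.83 ± 0.24, adjusted p = 0.0017) and did not pass after BL (0.33, adjusted p = 0.369) or BF (0.14, adjusted p = 0.769). Among 22 tested rows of the chromosome 5 locus with PR family 10 genes, 1 rose and 1 fell after Aki, 6 rose and 2 fell after BL, and 4 rose and 1 fell after BF. VIT_05s0077g01570 rose after BL (1.72 ± 0.39, adjusted p = 0.00905), and VIT_05s0077g01600 fell after BF (-1.51 ± 0.45, adjusted p = 0.0375, limma). The Log2(FC) of VIT_05s0077g01600 after Aki was 1.47 ± 0.45 (adjusted p = 0.0647), which did not pass here. The study, which used edgeR, lists this gene as upregulated by Aki. With all 16 libraries the calls of VIT_03s0088g00810 after Aki, VIT_05s0077g01570 after BL and VIT_05s0077g01600 after BF held (adjusted p = 0.0101, 0.0401 and 0.0105). The counts were lower for part of the loci. In the PR family 10 locus 0 rows were called after Aki, and 4 rose and 0 fell after BL, and in the PR family 1 locus 2 rose and 1 fell after Aki and 1 rose and 0 fell after BL. A pair of further loci, chosen as candidates for chitinases and beta-1,3-glucanases but not annotated in the sources used here, had no gene that fell. In VIT_05s0094g003, 0 of 9 tested rows rose after Aki, 4 after BL and 1 after BF, and with all 16 libraries 1 rose after BL. In VIT_08s0007g060, 1 of 6 tested rows rose after Aki, 3 after BL and 2 after BF, and with all 16 libraries 0 rose after Aki and 2 after BL.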

How the data were processed

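Leaf RNA was sequenced as paired reads from stranded mRNA libraries. Per the labels and the methods of the study, the authors trimmed the reads, used STAR (2.6) for alignment against the PN40024 genome, version 12X, and obtained counts of uniquely mapped fragments per gene with featureCounts (1.6.1). The strand setting of the counting is not given in the sources used here. The study tested differential expression with edgeR, which was not rerun here. The authors deposited FPKM for 30661 genes in 16 libraries and no other table was used. Whole fragments were rebuilt from the FPKM steps for 25310 of 25310 genes above 0 (100% of them within 0.01 fragments), and 3 fragments on 1 kb correspond to 0.177 to 0.271 FPKM. These served for depth, counting intervals and 1 alternative.

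Log2(FPKM + 0.1) was fitted with limma (3.58.1, R 4.3.3) with all 4 groups in the same linear model, trend and robust moderation switched on, and 12 retained libraries (n = 3 per group). The filter asked for 0.5 FPKM or more in 3 or more libraries and left 20078 genes (20246 with 16 libraries), and p-values were adjusted by Benjamini-Hochberg over all of them. All 8 members were tested. VIT_02s0025g04260 passed the filter through 3 Aki libraries and VIT_02s0025g04290 through 2 BL and 2 BF libraries, the other 6 in all 12. The 4 left-out libraries were chosen by the study from these data. Group letters (A, B, BL and Non-treated) and replicate numbers came from the labels, and 0 columns had no sample. The letters were matched to the treatments named by the study, A as Aki and B as BF. The members and gene lists were chosen with earlier results of these data known. Named genes were the 8 members, rows of the surrounding locus, PR genes of other loci, and the 5 genes most correlated with the member highest in NTC. Lists that needed protein names (leaf markers, other thaumatin-like genes) found no match, since 0 of 30661 identifiers were in the reference table, and no sequences are shown. No 2 libraries were identical. The fitting was tested on simulated data. Tables and figures used Python 3.11.15, pandas 2.3.3, NumPy 2.4.6, SciPy 1.17.1 and matplotlib 3.10.9. Alternatives numbered 24, and 4 more were added after seeing the data.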

Additional observations from a re-analysis of the deposited data

Results flagged for a closer look

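In 3 of the 32 sets of 4 libraries (8 genes in 4 groups), 1 library lay far from the others by Dixon's gap ratio, a test that chance alone passes in about 1 of 20 sets. VIT_02s0025g04310 had 11.8 FPKM in BL_R3, against 20.1 to 21.0 FPKM in the other BL libraries (ratio 0.897). VIT_02s0025g04330 had 12.5 FPKM in Aki_R3, against 4.42 to 5.51 FPKM in the other Aki libraries (ratio 0.865). VIT_02s0025g04340 had 10.2 FPKM in NTC_R3, against 2.36 to 2.82 FPKM in the other NTC libraries (ratio 0.941). NTC_R3 was among the libraries that the study left out, and BL_R3 and Aki_R3 were among those it retained.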

How the results depend on the processing

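The number of the 8 genes called was 1 for BL against NTC and 0 for BL against BF in all 28 alternatives, and 2 or 3 for Aki against BF. For Aki against NTC it was 2 and became 0 with all 16 libraries, 4 with a pseudocount of 1 and 4 with voom on the rebuilt fragments. With 1 retained library left out it was 1 to 3. With 1 library taken from the 16, it was 1 without Aki_R1, 0 without BF_R1, 0 without BL_R1 and 2 without NTC_R3. For BF against NTC it was 1 and became 2 in a separate fit of those groups, 1 to 2 with 1 retained library left out (2 without BL_R3), and, from the 16, 2 without Aki_R1 and 0 without BF_R1. For Aki against BL it was 3, and 1 to 3 with 1 retained library left out (1 without Aki_R2). VIT_02s0025g04260 was among the 4 genes, and among the 2 without NTC_R3, for Aki against NTC. It was also among the 3 for Aki against BL and the 3 for Aki against BF. Its calls in these settings lend no support, since only its Aki libraries took it over the filter. The fits on 16 libraries less 1 were chosen after seeing the data. The causes were not tested.

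Of 812 single-gene values under alternatives, 738 kept their direction and side of the threshold, 20 lost a call, 20 gained one and 34 changed sign, none of these with an adjusted p of 0.05 or less. For Aki against NTC, the Log2(FC) of VIT_02s0025g04290 was -0.014 with a pseudocount of 0.01, -0.29 to 0.32 with 1 retained library left out and -0.050 with NTC_R3 taken from the 16. That of VIT_02s0025g04340 was -0.054 with all 16, with or without BF_R1 or BL_R1, and -0.027 to 1.46 with 1 retained library left out, and that of VIT_02s0025g04330 was -0.69 to 0.049. For BL against NTC, VIT_02s0025g04310 ranged from -0.22 to 0.17 and VIT_02s0025g04340 from -0.40 to 0.48 with 1 retained library left out, the latter 0.0068 with a pseudocount of 1 and 0.014 with NTC_R3 taken from the 16. For BF against NTC, VIT_02s0025g04260 was -0.047 with all 16, with or without Aki_R1 or BL_R1. VIT_02s0025g04300 was -0.58 to 0.52 with 1 retained library left out and 0.021 with NTC_R3 taken from the 16, and VIT_02s0025g04330 was -0.40 to 0.11. VIT_02s0025g04340 was -0.44 with all 16, with or without Aki_R1 or BL_R1, and -0.28 without BF_R1.

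Replicates with the same number came from different plants, and 3 of 15 pairs of same-numbered retained libraries, and 10 of 24 over all libraries (-0.36 to 0.37), had deviations correlated above 0.1. Pairs with different numbers were not compared, so these values cannot decide whether the numbers pair the libraries. The main fit used no block. With the replicate number as a block, 1 gene was called for Aki against NTC with the retained libraries, VIT_02s0025g04280 no longer passing (1.11, adjusted p = 0.081), and 0 with all 16. The block turned the Log2(FC) of VIT_02s0025g04290 after Aki to -0.57 and that of VIT_02s0025g04340 after BF to -0.093 with the retained libraries, and with all 16 gave -0.054 for VIT_02s0025g04340 after Aki, -0.047 for VIT_02s0025g04260 after BF and -0.44 for VIT_02s0025g04340 after BF. Depth limits VIT_02s0025g04260 and VIT_02s0025g04290, with at most 21 and 9 fragments in a library, and VIT_02s0025g04260 was not tested with a filter of 1 FPKM or without any of the 3 retained Aki libraries.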
